A study of Arabidopsis thaliana with 4 samples.

Results

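The A-, B- and D-type cyclin genes and the cell cycle kinase genes CDKA-1, CDKB1-1, CDKB1-2, CDKB2-1 and CDKB2-2 of *Arabidopsis thaliana* were examined in whole seedlings treated with ethylene or with air. The members were 34 loci chosen by gene name, and they were looked up by locus in a table of 32878 rows, 27735 of which name a single locus. Of these loci, 30 had a row of their own, and 27 of the 30 had a test. The remaining 4 lay in 3 rows that merge nearby loci and are given apart. Names are written with a hyphen in place of the semicolon that is also in use, so that CYCA1-1 stands for cyclin A1;1. Both groups carried mutations in *DAZ3* and *TREE1*, genes of zinc-finger proteins, in the Columbia background, and the alleles are not given in the labels. After 3 days of growth in the dark, whole seedlings were given 10 ppm ethylene in hydrocarbon-free air, or the air without it, over 4 hours. There were 2 libraries in the ethylene group and 2 in the air group. The labels do not say whether these came from separate cultures, so the p-values may measure technical spread. Wild-type seedlings were not analysed here, and the comparison is of 1 genotype.

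Cyclins are the regulatory subunits of cyclin-dependent kinases (CDKs), and their turnover orders the steps of the cell cycle. In plants, D-type cyclins act with CDKA at the entry from G1 into S phase, where the complex phosphorylates the retinoblastoma-related protein RBR1 and frees E2F transcription factors. A-type cyclins act mainly from S phase into G2 and in the control of endoreduplication, the rounds of DNA synthesis without division that enlarge plant cells. B-type cyclins act at the entry into mitosis, and the plant-specific CDKB kinases act from G2 to mitosis. A dark-grown hypocotyl elongates mostly by cell expansion, with division largely confined to the shoot and root tips. Ethylene is a gaseous hormone that shortens and thickens such seedlings.

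Transcription at the G2 to M step is known to be driven through the mitosis-specific activator (MSA) element, which three-repeat MYB factors bind. The 250 bases before each annotated gene start were taken from the RefSeq TAIR10.1 genome and searched on both strands. The MSA element, built on the core AACGG, was found in 6 of 9 B-type cyclin genes (66.7%), against 282 of 27443 protein-coding genes (1.03%). It was found in 0 of 10 A-type cyclins, 0 of 10 D-type cyclins and 0 of 5 CDK genes. The pattern searched is 10 bases long, so sites that depart from it or lie outside the window were not counted. The core alone, which every full element also holds, was found in 12 of 34 members (35.3%) and in 20.6% of all genes. By class it was found in 4 of 10 A-type, 6 of 9 B-type and 1 of 10 D-type cyclins and in 1 of 5 CDK genes. GCCGCC, the core of the GCC box that ethylene response factors bind, was found in 1 member (2.94%), CYCA3-4, and in 1.87% of all genes. These matches are descriptions of the letters and not of binding.

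The upstream windows of 2 members are shown whole, 5′ to 3′ in the direction of the gene. CYCB1-1 is the mitotic cyclin whose promoter is commonly used to mark dividing cells, and CYCB2-3 lies in the member row with the smallest p and was chosen for display after its values were seen. Capitals mark the MSA element, on either strand, which begins 63 bases before the start of CYCB1-1 and 69 before that of CYCB2-3.
CYCB1-1 (chr4:17624309-17624558, minus strand): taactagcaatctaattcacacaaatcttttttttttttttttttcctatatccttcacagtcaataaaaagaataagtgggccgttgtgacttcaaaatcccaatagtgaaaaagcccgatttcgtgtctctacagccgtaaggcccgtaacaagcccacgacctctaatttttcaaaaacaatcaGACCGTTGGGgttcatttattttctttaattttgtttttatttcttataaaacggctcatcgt
CYCB2-3 (chr1:7137829-7138078, minus strand): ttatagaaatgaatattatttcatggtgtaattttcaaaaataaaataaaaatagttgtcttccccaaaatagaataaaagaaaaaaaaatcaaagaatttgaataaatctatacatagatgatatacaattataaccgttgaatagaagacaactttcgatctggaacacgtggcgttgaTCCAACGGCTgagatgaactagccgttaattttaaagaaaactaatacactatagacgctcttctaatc

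The elements of the other 4 B-type cyclins that hold one are shown with 10 bases on each side. The pattern searched fixes or limits every capital letter, so the likeness of the elements is not a finding. CYCB1-2 holds 2 such elements and the one farther from the gene start is shown.
CYCB1-2 (chr5:1861830-1861859, minus strand): ttatttacagTCCAACGGCCtcattcgatg
CYCB1-3 (chr3:3627296-3627325, minus strand): aagttcatcaTCCAACGGCTagaagtctaa
CYCB2-1 (chr2:7663957-7663986, plus strand): tccctcatgaTCCAACGGTTatattctaaa
CYCB2-2 (chr4:16901459-16901488, plus strand): tccttcatgaTCCAACGGTCatcttaatca

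No member with a row of its own passed the test in either direction. Among 27 tested members, 0 were called higher and 0 lower with ethylene, by Benjamini-Hochberg adjustment of the authors' Cuffdiff p-values over 18696 tested rows at a threshold of 0.05. Across all tested rows 6.34% were called, 2.17% higher and 4.18% lower. By the unadjusted p at 0.05, 1 of 27 members was higher and 0 were lower, against 18.8% of all rows in either direction, 7.74% higher and 11% lower. The 3 merged rows that hold the other members were not called either. The values below are FPKM (fragments scaled to transcript length and library size), 1 value per group as the authors deposited it, so no SD and no per-library value can be given. In whole seedlings, fewer dividing cells and less RNA per cell cannot be told apart.

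**Figure D1:**
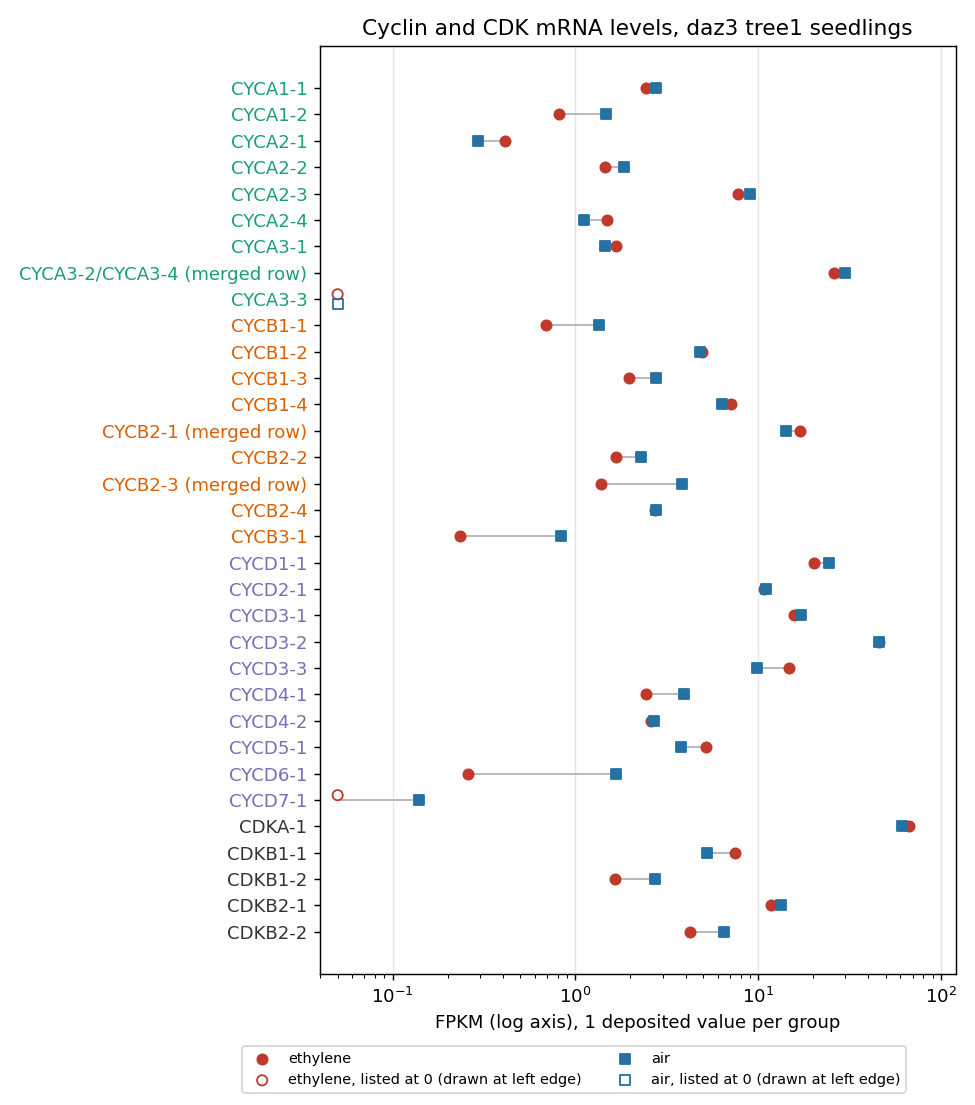
FPKM of every cyclin and CDK gene with ethylene (red circles) and in air (blue squares) on a log axis, with 1 deposited value per group and names coloured by class. CDKA-1 at 66.9 and 61.4 FPKM and CYCD3-2 at 45.9 and 46.0 FPKM are the highest, and the pairs of points lie close together for most genes above 5 FPKM.

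D-type cyclins held most of the summed FPKM of the cyclin genes. Their 10 genes summed to 117.7 FPKM with ethylene and 120.7 FPKM in air. The 8 A-type genes with their own rows summed to 15.97 and 17.93 FPKM, and the 7 such B-type genes to 19.33 and 21.07 FPKM. The A- and B-type sums leave out the merged rows, of which those of CYCA3-2 with CYCA3-4 and of CYCB2-1 were higher than any A- or B-type gene with its own row.

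CYCD3-2 (AT5G67260) was the D-type cyclin with the highest level. It had 45.9 FPKM with ethylene and 46.0 FPKM in air. CYCD3 genes are known for keeping cells in mitotic cycles and for responding to cytokinin. The log2 fold change of ethylene over air was 0.00 for CYCD3-2, with a 95% interval from -0.34 to 0.33. Each interval was derived from the deposited p with a normal approximation, so it carries only the error that the authors' test counted. CYCD3-1 (AT4G34160) had 15.8 FPKM with ethylene and 17.0 FPKM in air, and its interval ran from -0.55 to 0.33. For these 2 genes a 2-fold change in either direction lay outside the interval.

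CYCD3-3 (AT3G50070) was the member with the smallest p among the 27. It had 14.7 FPKM with ethylene and 9.90 FPKM in air, which is a fold of 1.48. Its log2 fold change was 0.57 with an implied interval from 0.05 to 1.08. The unadjusted p in the authors' deposited table was 0.0303. After adjustment over all rows it did not pass (Benjamini-Hochberg adjustment of the authors' p-values, adjusted p = 0.205). The 3 CYCD3 genes thus had values on both sides of 0, and no difference between them was tested.

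CYCD1-1 (AT1G70210) and CYCD2-1 (AT2G22490) were the other D-type cyclins above 10 FPKM. CYCD1-1 had 20.19 FPKM with ethylene and 24.51 FPKM in air, with a log2 fold change of -0.28 and an interval from -0.64 to 0.08. CYCD2-1, a cyclin whose message responds to sugar, had 10.70 FPKM with ethylene and 11.01 FPKM in air, with an interval from -0.51 to 0.43. CYCD4-1 (AT5G65420), which acts in lateral root formation and stomatal divisions, had 2.45 FPKM with ethylene and 3.94 FPKM in air. CYCD4-2 (AT5G10440), its closest relative, had 2.59 FPKM with ethylene and 2.68 FPKM in air. CYCD5-1 (AT4G37630) had 5.15 FPKM with ethylene and 3.76 FPKM in air. Their intervals ran from -1.62 to 0.25 for CYCD4-1, from -1.18 to 1.09 for CYCD4-2 and from -0.35 to 1.26 for CYCD5-1, so changes of 2-fold or more in 1 direction or both lay inside them.

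CYCD6-1 (AT4G03270), known for the formative divisions of the root ground tissue, had the lowest log2 fold change of all members. It had 0.257 FPKM with ethylene and 1.67 FPKM in air, a log2 fold change of -2.70. Both levels were low and the implied interval ran from -5.42 to 0.02. It did not pass (Benjamini-Hochberg adjustment of the authors' p-values, adjusted p = 0.273). CYCD7-1 (AT5G02110), which acts in the last division of the stomatal lineage, was listed at 0 with ethylene and at 0.140 FPKM in air and was not tested. A listed 0 need not mean that no message was there, since the estimate may have failed.

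Among A-type cyclins the highest level stood in a merged row. CYCA3-2 (AT1G47210) and CYCA3-4 (AT1G47230), cyclins of a class expressed mainly around the entry into S phase, share a row that had 26.1 FPKM with ethylene and 29.8 FPKM in air. Its log2 fold change was -0.19 with an interval from -0.62 to 0.23, so that a 2-fold change of their joint level lay outside it. In the TAIR10.1 annotation the 2 genes stand 3659 bases apart on the same strand of chromosome 1, and CYCA3-3 (AT1G47220) lies between them. CYCA3-3 was listed at 0 in both groups and was not tested. How the joint level splits between CYCA3-2 and CYCA3-4 cannot be read from this row.

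CYCA2-3 (AT1G15570), which restrains endoreduplication, was the highest A-type cyclin with its own row. It had 7.71 FPKM with ethylene and 8.99 FPKM in air, and its interval ran from -0.74 to 0.30. Its relatives CYCA2-2 (AT5G11300) and CYCA2-4 (AT1G80370) had 1.46 and 1.48 FPKM with ethylene, against 1.85 and 1.12 FPKM in air. CYCA2-1 (AT5G25380) had 0.413 FPKM with ethylene and 0.292 FPKM in air and was not tested. CYCA1-1 (AT1G44110) had 2.44 FPKM with ethylene and 2.76 FPKM in air. CYCA1-2 (AT1G77390), known as TAM for its part in meiosis, had 0.812 FPKM with ethylene and 1.46 FPKM in air. CYCA3-1 (AT5G43080) had 1.66 FPKM with ethylene and 1.46 FPKM in air. Of the 6 tested A-type genes, CYCA2-3 alone had an interval within 2-fold on both sides. The log2 fold changes of the 6 ran from -0.85 for CYCA1-2, with an interval from -2.44 to 0.74, to 0.41 for CYCA2-4, with an interval from -0.91 to 1.73. The class median log2 fold change was -0.20, beside -0.02 for all tested rows.

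B-type cyclins with their own rows lay between 0.234 and 7.12 FPKM with ethylene and between 0.829 and 6.34 FPKM in air. CYCB1-4 (AT2G26760) was the highest of them, at 7.12 FPKM with ethylene and 6.34 FPKM in air. CYCB1-2 (AT5G06150) had 4.94 FPKM with ethylene and 4.78 FPKM in air. For these 2 genes the intervals ran from -0.40 to 0.74 and from -0.60 to 0.69. CYCB1-1 (AT4G37490) had 0.687 FPKM with ethylene and 1.34 FPKM in air, a log2 fold change of -0.96 with an interval from -2.75 to 0.83. CYCB1-3 (AT3G11520) had 1.97 FPKM with ethylene and 2.75 FPKM in air. CYCB2-4 (AT1G76310) had 2.71 FPKM with ethylene and 2.75 FPKM in air. CYCB3-1 (AT1G16330), which acts in meiosis, had 0.234 FPKM with ethylene and 0.829 FPKM in air, with an interval from -4.07 to 0.42. The median over the 7 tested genes was -0.45, and over those with at least 5 FPKM in the larger group the only tested member, CYCB1-4, had 0.17.

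CYCB2-2 (AT4G35620) is the next annotated locus to *TREE1* (AT4G35610), from which it is read in the opposite direction across a gap of 1327 bases. It had 1.67 FPKM with ethylene and 2.28 FPKM in air, with an interval from -1.48 to 0.58. Both groups carry the mutation, so its effect on this neighbour cannot be seen here.

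The row of CYCB2-3 (AT1G20610) had the smallest p of all member rows. It had 1.38 FPKM with ethylene and 3.84 FPKM in air, a log2 fold change of -1.48 with an interval from -2.50 to -0.46. The unadjusted p in the authors' deposited table was 0.00445. It did not pass at 0.05 (Benjamini-Hochberg adjustment of the authors' p-values, adjusted p = 0.0622), and it did pass when all log2 values were lowered by the median of 12 housekeeping genes (adjusted p = 0.0157). With that lowering, 2168 of 18696 tested rows were called lower, against 781 without it. The pass is thus not separate evidence of a decrease. The row of CYCB2-3 also holds AT1G20590, which RefSeq annotates as a cyclin, 2193 bases away on the same strand of chromosome 1. Another locus, AT1G20600, lies between them. Of the 30-base words in the CYCB2-3 transcript, 19.8% also occur in AT1G20590, so the value cannot be assigned to CYCB2-3 alone. The row of CYCB2-1 (AT2G17620) also holds AT2G17630, annotated as a pyridoxal phosphate-dependent transferase, whose start lies 25 bases beyond the end of CYCB2-1 on the same strand. It had 17.0 FPKM with ethylene and 14.2 FPKM in air, with an interval from -0.44 to 0.96.

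The 4 B-type cyclins with a full MSA element and their own row, CYCB1-1, CYCB1-2, CYCB1-3 and CYCB2-2, had log2 fold changes of -0.96, 0.05, -0.48 and -0.45. The 3 without one, CYCB1-4, CYCB2-4 and CYCB3-1, had 0.17, -0.02 and -1.83. The 2 sets overlap.

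**Figure D2:**
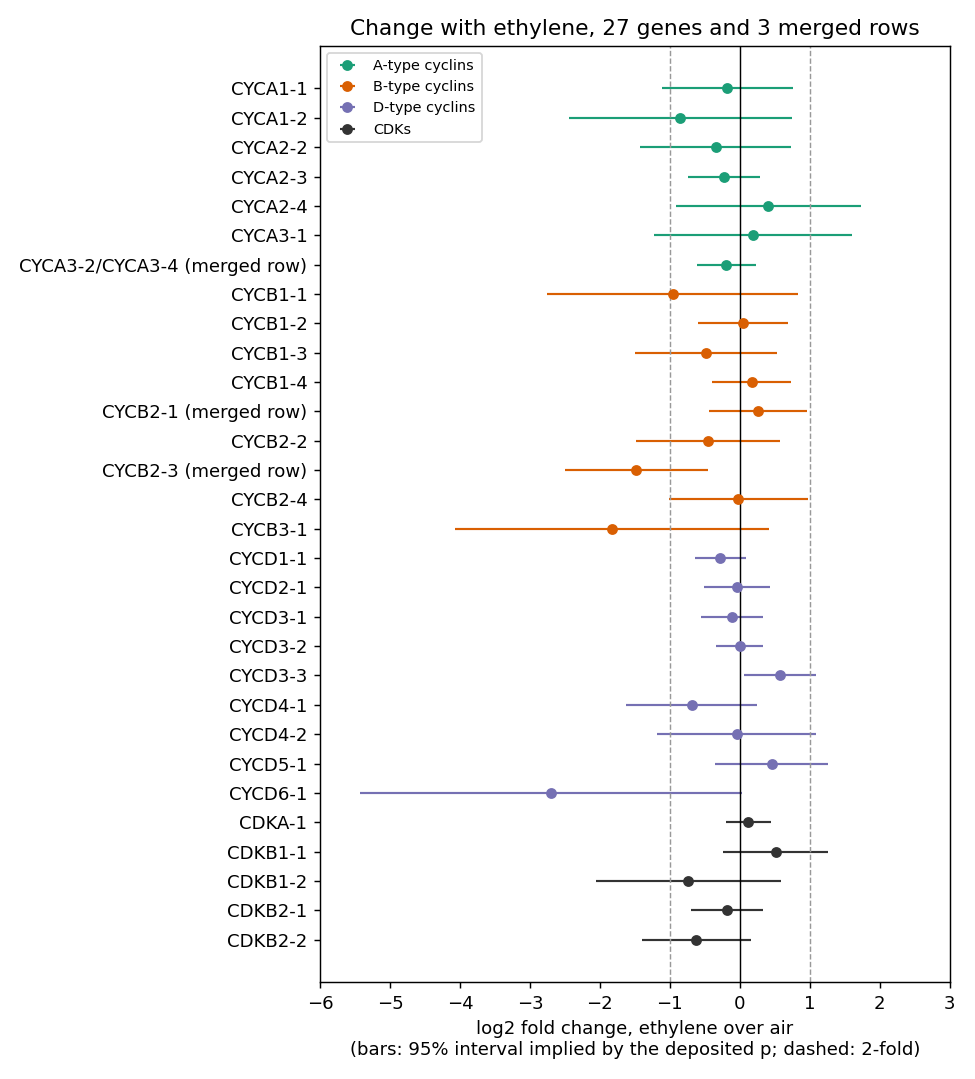
Log2 fold change of ethylene over air for the 27 tested genes and 3 merged rows, coloured by class, with 95% intervals implied by the deposited p and dashed lines at 2-fold. Only CYCD3-3, from 0.05 to 1.08, and the merged row of CYCB2-3, from -2.50 to -0.46, have intervals that leave out 0, and neither passed the adjusted test.

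The kinase genes differed more in level than between treatments. CDKA-1 (AT3G48750), the general cell cycle kinase that is also present in cells that no longer divide, had the highest level of all members. It had 66.9 FPKM with ethylene and 61.4 FPKM in air, with a log2 fold change of 0.12 and an interval from -0.19 to 0.44. Its level was at or above that of 87% of tested rows with ethylene and 85.9% in air. CDKB2-1 (AT1G76540) had 11.7 FPKM with ethylene and 13.3 FPKM in air, with an interval from -0.69 to 0.33. CDKB2-2 (AT1G20930) had 4.24 FPKM with ethylene and 6.52 FPKM in air, with an interval from -1.40 to 0.16. CDKB1-1 (AT3G54180), which also restrains endoreduplication, had 7.44 FPKM with ethylene and 5.22 FPKM in air, with an interval from -0.24 to 1.27. CDKB1-2 (AT2G38620) had 1.64 FPKM with ethylene and 2.73 FPKM in air, with an interval from -2.06 to 0.58. The 2 CDKB1 genes thus had values on opposite sides of 0, by 0.51 and -0.74 on the log2 scale, with intervals that overlap.

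What these values can bound depends on level. Of the 27 tested members, 9 had an interval within 2-fold on both sides (33.3%), against 58.6% of all tested rows. Among the 12 members with at least 5 FPKM in the larger group the number was 8, and among the 15 below it was 1. Of all tested rows at those levels, 74.6% and 11.7% had such an interval. The median implied standard error was 0.26 in the higher set and 0.58 in the lower, beside 0.22 and 0.68 for all rows of those levels. For 14 members a decrease of 2-fold or more lay inside the interval, and for 6 an increase of that size.

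More members had lower than higher values with ethylene, at any p. Of 27, 19 were lower (70.4%), beside 52.0% of all tested rows, and the median log2 fold change was -0.18. Among the 12 members at 5 FPKM or more, 7 were lower with a median of -0.02, beside 50.5% of such rows and a median of -0.01. Among the 15 at lower levels, 12 were lower with a median of -0.45, beside 56.2% and -0.10. The share of lower values was larger at low levels in the members and in all rows, and the part of low level in these values was not tested. The sign of small values depended on the scaling, for which 12 housekeeping genes were used as an alternative. Whether scaling or ethylene moved these 12 genes was not tested. All 12 had higher values with ethylene at a median of 0.21, and EF1A (AT5G60390), a translation elongation factor, passed the test at 1269.2 FPKM with ethylene and 952.6 FPKM in air (Benjamini-Hochberg adjustment of the authors' p-values, adjusted p = 0.0417). Lowering all values by that shift moved the median of tested rows to -0.23 and that of the members to -0.38, with 0 of 27 members called, and it put CYCB1-4, CDKA-1, CYCA3-1 and CYCB1-2 below 0. Centring on the median of all tested rows put CYCB2-4 and CYCD3-2 above 0.

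**Figure D3:**
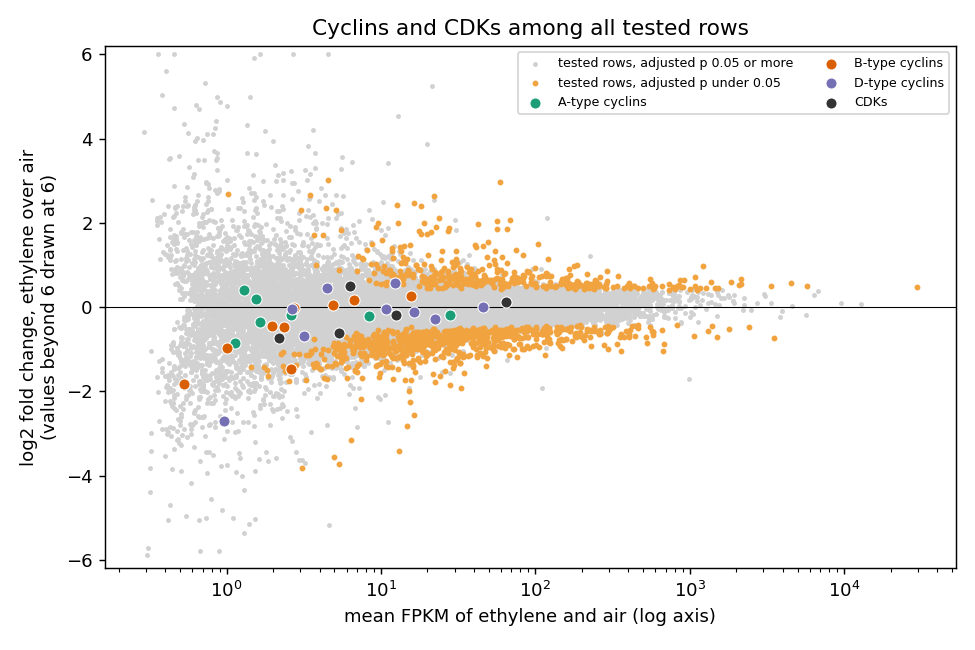
Log2 fold change of ethylene over air against mean FPKM (log axis) for all tested rows above 0 in both groups (values beyond 6 drawn at 6), with rows at an adjusted p under 0.05 in orange and the 27 cyclin and CDK genes and 3 merged rows as large points. None of the large points is a called row, and those with the largest distance from 0 are at low FPKM.

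Reads from similar or overlapping genes could move some values. Of the 34 members, 15 share no 30-base word of their annotated transcripts with another gene on either strand, and 14 share at most 6% of their words. The other 5 share more. CYCB1-2 shares 19.9% with CYCB1-5, CYCB2-3 shares 19.8% with AT1G20590, and CYCD6-1 shares 21.1% with AT4G03260. CDKB1-2 shares 18.4%, with AT2G38630 and CDKB1-1, and CDKB2-2 shares 12% with AT1G20925. The sources used here do not say how the authors' counting treated such reads or whether it used strand.

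Regulators of the cyclin and CDK complexes were compared next, from lists of named genes. Among CDK inhibitors 1 of 15 tested genes was called, SMR1 (AT3G10525), also known as LGO, which drives endoreduplication in sepals. Over all tested rows the share called was 6.34%, so 1 of 15 is near the background. SMR1 fell to 75.4 FPKM with ethylene, against 118.3 FPKM in air, a log2 fold change of -0.65 with an interval from -1.01 to -0.29 (Benjamini-Hochberg adjustment of the authors' p-values, adjusted p = 0.0115), which does not pass at 0.01. KRP1 (AT2G23430), chosen for naming after its values were seen, had 5.21 FPKM with ethylene and 11.4 FPKM in air and did not pass (Benjamini-Hochberg adjustment of the authors' p-values, adjusted p = 0.0558). SIM (AT5G04470), which stops division in trichomes, had 191.5 FPKM with ethylene and 154.8 FPKM in air, with an interval from -0.01 to 0.62, and it too was named after its values were seen. Over the 15 genes, 10 had lower values and the median was -0.42. By the unadjusted p at 0.05, 0 of the 15 were higher and 4 lower, against 7.74% and 11% of all tested rows. The 4 were SMR1, KRP1, KRP4 (AT2G32710) and KRP6 (AT3G19150), and only SMR1 passed after adjustment.

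The other lists of cell cycle genes held 0 calls in either direction, beside 6.34% of all tested rows. By the unadjusted p at 0.05, 7.74% of all tested rows were higher and 11% lower. RBR1 (AT3G12280), the target of the CYCD complexes, had 17.4 FPKM with ethylene and 17.0 FPKM in air, with an interval from -0.51 to 0.57. DPB (AT5G03415), a partner of E2F factors, had 7.05 FPKM with ethylene and 9.49 FPKM in air. By the unadjusted p at 0.05, 0 of the 9 genes of this list were higher and 2 lower, and the median of the 9 was -0.48. The 2 lower were E2FB (AT5G22220), at 1.86 FPKM with ethylene and 4.06 FPKM in air, and DPA (AT5G02470), at 5.10 and 8.95 FPKM. Among 4 tested three-repeat MYB genes, whose products bind the MSA element, MYB3R1 (AT4G32730) had 8.44 FPKM with ethylene and 8.78 FPKM in air. MYB3R3 (AT3G09370) had 4.03 FPKM with ethylene and 6.84 FPKM in air, and by the unadjusted p 0 of the 4 genes were higher and 2 lower, with a median of -0.41. The 2 were MYB3R3 and MYB3R5 (AT5G02320), the latter at 0.859 FPKM with ethylene and 2.24 FPKM in air. MYB3R4 (AT5G11510) had 1.24 FPKM with ethylene and 1.09 FPKM in air. The members of this family need not act alike, and their action was not tested.

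CKS1 (AT2G27960) and CKS2 (AT2G27970), small subunits that dock to CDKs, had values on opposite sides of 0. CKS1 had 120.6 FPKM with ethylene and 85.1 FPKM in air, with an interval from 0.10 to 0.91 (Benjamini-Hochberg adjustment of the authors' p-values, adjusted p = 0.129). CKS2 had 27.9 FPKM with ethylene and 35.8 FPKM in air, with an interval from -0.95 to 0.22. Their list, which also holds the CDK-activating kinases and WEE1 (AT1G02970), had a median of 0.33 over 9 genes, with 1 higher and 0 lower by the unadjusted p. By that p, 7.74% of all tested rows were higher and 11% lower. CCS52A1 (AT4G22910) and CCS52B (AT5G13840), which activate the complex that destroys mitotic cyclins, had 4.76 and 6.29 FPKM with ethylene, against 8.18 and 7.35 FPKM in air. Of 3 tested genes of that list, 0 were higher and 1 was lower by the unadjusted p, and the median was -0.22. CDC20.1 (AT4G33270) and CDC20.2 (AT4G33260), activators of the same complex, share a merged row left out of that count, which had 12.4 FPKM with ethylene and 10.2 FPKM in air, with an interval from -0.20 to 0.76.

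Genes downstream of the cyclin and CDK complexes also held 0 calls, beside 6.34% of all tested rows. For the unadjusted counts below, the shares of all tested rows are 7.74% higher and 11% lower. Among 5 S-phase genes 4 had lower values, and by the unadjusted p 0 were higher and 2 lower, with a median of -1.20 that was -0.72 on the log2(FPKM + 1) scale. CDT1A (AT2G31270), 1 of the 2 lower, had 1.88 FPKM with ethylene and 4.39 FPKM in air. It did not pass (Benjamini-Hochberg adjustment of the authors' p-values, adjusted p = 0.0824) and was named after its values were seen. PCNA1 (AT1G07370) and CDC6A (AT2G29680) had log2 fold changes of -1.39 and -1.20, with intervals that include 0. TSO2 (AT3G27060), a ribonucleotide reductase subunit, had 53.6 FPKM with ethylene and 48.3 FPKM in air. PCNA2 (AT2G29570), a sliding clamp of DNA polymerase, had 10.3 FPKM with ethylene and 17.5 FPKM in air, with an interval from -1.50 to -0.04. Among 9 genes of mitosis and cytokinesis, 7 had lower values, and by the unadjusted p 0 were higher and 2 lower, with a median of -0.53. At 5 FPKM or more this list held only KNOLLE, AUR1 (AT4G32830) and PANS1, with log2 fold changes of -0.57, 0.23 and 0.29. The median of 0.23 at that level is thus the value of AUR1. KNOLLE (AT1G08560), the syntaxin of the cell plate, had 8.68 FPKM with ethylene and 12.9 FPKM in air. PANS1 (AT3G14190), which protects sister chromatid cohesion, had 7.94 FPKM with ethylene and 6.51 FPKM in air. The intervals ran from -1.13 to -0.02 for KNOLLE and from -0.52 to 1.10 for PANS1. These genes share the 2 groups with the members, so their counts are not independent of the members' values.

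**Figure D4:**
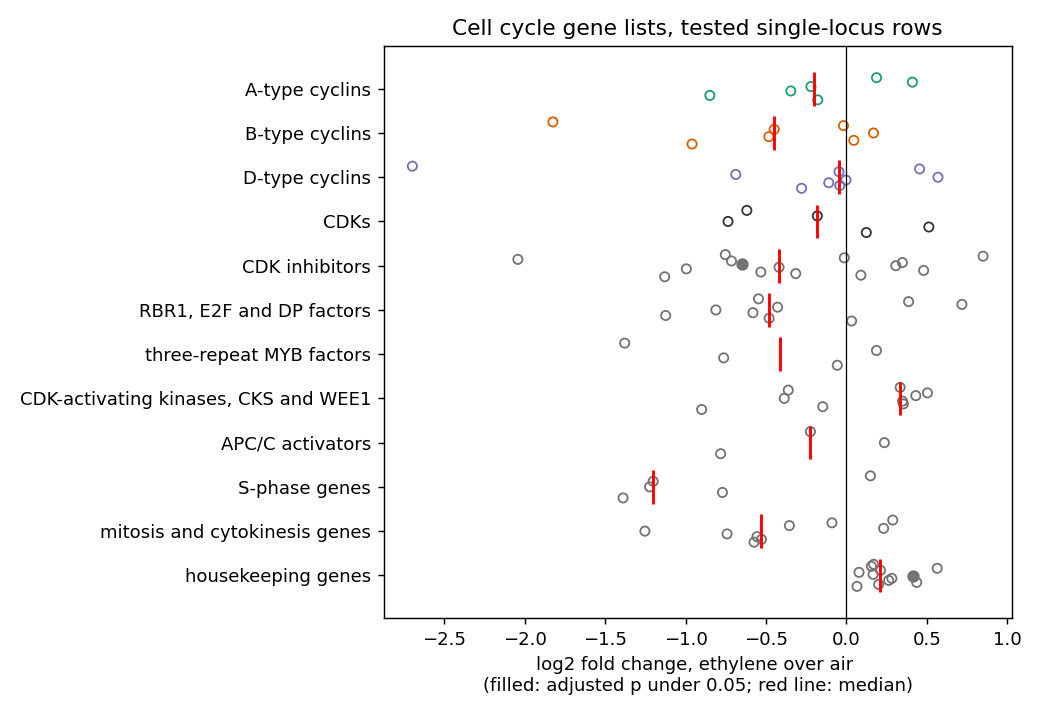
Log2 fold change of ethylene over air for each tested single-locus gene of the 4 member classes, 7 lists of cell cycle regulators and targets, and 12 housekeeping genes, with red lines at the list medians. Filled points passed the adjusted test, which among cell cycle genes is SMR1 at -0.65, and all 12 housekeeping genes, of which EF1A passed, lie above 0.

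Checks of the labels and tissue were made in the same table. TREE1 was listed at 0.327 FPKM with ethylene and at 0 in air, and DAZ3 (AT4G35700) at 0 in both, and with 1 genotype it cannot be told whether the mutations lower these values. PYK10 (AT3G09260) and CASP1 (AT2G36100) came from a list of root markers that also held PLT1 and PLT2, given below. Whether PYK10 marks root alone was not tested. PORA (AT5G54190) and RBCS1A (AT1G67090) came from a list of cotyledon markers. PYK10, CASP1, PORA and RBCS1A lay between 176.3 and 13204.8 FPKM with ethylene and between 170.2 and 12576.1 FPKM in air. Of these PORA, a protochlorophyllide reductase of dark-grown tissue, fell to 1146.7 FPKM with ethylene, against 1873.0 FPKM in air (Benjamini-Hochberg adjustment of the authors' p-values, adjusted p = 0.00227). The part of this shift in the members' values was not tested. Shoot and root tip markers, which mark where cells divide, were low. STM (AT1G62360) had 6.80 FPKM with ethylene and 5.14 FPKM in air, CLV3 (AT2G27250) had 1.18 and 1.03 FPKM, and WUS (AT2G17950) and PLT2 (AT1G51190) were at 0 in both groups. PLT1 (AT3G20840) was at 0 with ethylene and at 0.0518 FPKM in air. The flower markers AP3 (AT3G54340), PI (AT5G20240) and AG (AT4G18960) were at 0 with ethylene and at most 0.136 FPKM in air.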

How the data were processed

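RNA-seq was made from 4 libraries of dark-grown *daz3 tree1* seedlings, 2 per treatment. The submitters' processing notes name TopHat2 2.0.9, Cuffdiff 2.0.1 and the TAIR10 build, without settings, filters or scaling. The deposited values were taken as FPKM, 1 value per group, since the notes name Cuffdiff. Depth per library is unknown, and no per-library test was possible. The deposited p-value column was read as unadjusted, from its header and from steps down to 5e-05.

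The log2 fold change, ethylene over air, was recomputed from the deposited FPKM, because 1186 cells of the deposited fold column held error text. It was within 0.001 of the deposited one in 19947 of 19948 rows above 0 in both groups. The deposited p-values were adjusted by Benjamini-Hochberg over 18696 named rows with a p under 1, and called under 0.05. Standard errors and 95% intervals were implied from p under a normal approximation, which the table gives no means to check. The code of the adjustment and of the intervals, not the approximation, was tested on simulated data. Rows without a gene name, 88.9% of the ethylene column's sum and 86.0% of the air column's, were left out.

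Members and lists were chosen with earlier results of these data known. All members were named, as were called genes of the other lists or, where a list had none, its 2 highest tested genes with rows of their own. Some others, among them KRP4, KRP6 and AUR1, were named after their values were seen. Where a group was listed at 0, no fold was computed. Alternatives were other thresholds, filters, pseudocounts and scalings. Positions and windows came from RefSeq TAIR10.1, matched by locus. The table gives no coordinates. One further upstream sequence is not reported here. Scripts ran in Python 3.11.15 with scipy 1.17.1, pandas 2.3.3, numpy 2.4.6 and matplotlib 3.10.9.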

Additional observations from a re-analysis of the deposited data

How the results depend on the processing

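The count of 0 members called higher and 0 lower among 27 held at thresholds of 0.01 and 0.1, with filters at 1 and 5 FPKM, over single-locus rows, with both scalings and for lower calls by the unadjusted p, where 1 member was higher. Among the merged rows, 1 was called lower at a threshold of 0.1, when lowered by the median of the housekeeping genes and by the unadjusted p, in each case that of CYCB2-3. The values of 4 members changed sign when lowered by the housekeeping median, to -0.038 for CYCB1-4, -0.082 for CDKA-1, -0.019 for CYCA3-1 and -0.160 for CYCB1-2, and 2 when centred on the median of tested rows, to 0.003 for CYCB2-4 and 0.018 for CYCD3-2. The SMR1 call was lost at a threshold of 0.01 and held under the other settings run. At 5 FPKM or more the B-type cyclins held only CYCB1-4, at 0.17, and the median of the mitosis list was 0.23, the value of AUR1. The median of the S-phase list was -0.72 on the log2(FPKM + 1) scale. No paired analysis was possible because the columns hold 1 value per group, and leaving out single replicates was not possible for the same reason. Over all tested rows, 190 and 409 were called higher and lower at 0.01, 631 and 1089 at 0.1 and 155 and 2168 when lowered by the housekeeping median, against 405 and 781. Unknown depth and low FPKM limit what can be said of members below 5 FPKM.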

Other observations

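Cyclin and CDK genes outside the 34 members and the lists above, among them 1 more B-type cyclin, were looked up by their names in RefSeq. This further list was drawn up after the results above were seen. It leaves out CDKD1, CDKD2, CDKD3, CDKF1 and CYCH1, which stand in the list of CKS1 and were not called. Only names of a fixed form were matched, so it need not hold every such gene. Of 16 loci found, 11 were tested in rows of their own, 1 of them was called higher and 2 lower, and 4 had an unadjusted p under 0.05. Over all tested rows 2.17% were called higher and 4.18% lower, and 18.8% had an unadjusted p under 0.05. All 3 calls were T-type cyclins, whose class is known from work on the P-TEFb kinase that acts on RNA polymerase II and not on the cell cycle. CYCT1-3 rose to 36.0 FPKM with ethylene, against 22.2 FPKM in air, a log2 fold change of 0.70 with an implied 95% interval from 0.33 to 1.06 (Benjamini-Hochberg adjustment of the authors' p-values, adjusted p = 0.00698). CYCT1-4 fell to 9.01 FPKM with ethylene, against 17.5 FPKM in air, with a log2 fold change of -0.96 and an interval from -1.42 to -0.49 (Benjamini-Hochberg adjustment of the authors' p-values, adjusted p = 0.00227). CYCT1-5 fell to 13.3 FPKM with ethylene, against 21.6 FPKM in air, with a log2 fold change of -0.71 and an interval from -1.11 to -0.30 (Benjamini-Hochberg adjustment of the authors' p-values, adjusted p = 0.0173). The T-type cyclin calls thus go in both directions. The genes of their known kinase partners, CDKC-1 and CDKC2, had 9.99 and 54.6 FPKM with ethylene, against 13.2 and 51.4 FPKM in air, and were not called. CYCP2-1, known for the sugar-dependent start of meristem activity in seedlings, had 16.8 FPKM with ethylene and 6.93 FPKM in air and did not pass (Benjamini-Hochberg adjustment of the authors' p-values, adjusted p = 0.0824). The B-type cyclin CYCB1-5 lay in a row merged with AT1G34470, at 16.7 FPKM with ethylene and 16.5 FPKM in air.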
